A study of Mus musculus with 15 samples.

Results

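The transcripts described here are 10 genes of the transforming growth factor beta (TGF-beta) system in infarcted mouse ventricles. They are the ligands Tgfb1, Tgfb2 and Tgfb3, the activin subunit gene Inhba, the receptors Tgfbr1, Tgfbr2 and Tgfbr3, and the latent TGF-beta binding proteins Ltbp1, Ltbp2 and Ltbp3. They were chosen by symbol from the 39331 genes of the count table, with earlier results of these data known. All 10 had reads in each of 15 libraries and all 10 passed the filter on low counts, as did 16437 genes in all. Polyadenylated RNA came from left ventricles of C57BL/6 mice that had undergone experimental myocardial infarction, an injury shared by every group. Adult hearts with transferred adult T cells (adult recipients) gave 4 libraries, numbered 1 to 4, and adult hearts without T cells (adult controls) gave 3, numbered 5 to 7. Neonatal hearts with transferred adult T cells (neonatal recipients) gave 4 libraries, numbered 1, 2, 4 and 5, and untreated neonatal hearts (neonatal controls) gave 4, numbered 6 to 9. The labels give a time of 36 h for neonatal hearts. For adult hearts they give no time, so age and time after infarction cannot be told apart. Ages in days, sex, T cell subset and dose, and whether a library is 1 animal are not stated, so the p-values measure the spread between these libraries, which may be technical.

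Library totals ran from 21871617 to 34302786 counts. Levels are CPM, a gene's count relative to the scaled library total, and comparisons are log2 fold changes ± standard error (SE) from a fit of all 15 libraries with edgeR's quasi-likelihood test. P-values were adjusted for 16437 genes (Benjamini-Hochberg), and a gene was called where the adjusted p was below 0.05. The summed level of 7 ventricular cardiomyocyte markers was 38274 to 66012 CPM, and that of 3 lung markers was 0 to 0.728 CPM. The summed level of 6 T cell markers was 2.89 to 4.78 CPM in adult recipients, 1.999 to 2.71 CPM in adult controls, 1.46 to 2.41 CPM in neonatal recipients and 1.28 to 3.09 CPM in neonatal controls. A lower level in such bulk tissue can come from fewer cells of a type or from less RNA per cell, which cannot be told apart here.

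TGF-beta ligands are secreted as latent complexes, in which the cleaved propeptide still encloses the growth factor and is tied by a latent TGF-beta binding protein to the extracellular matrix. Integrins and proteases release the active dimer, which binds the type II receptor (Tgfbr2), and this receptor then phosphorylates the type I receptor (Tgfbr1, also called ALK5) so that it activates Smad2 and Smad3. After infarction the pathway is known for turning fibroblasts into matrix-producing myofibroblasts and for restraining inflammation, and in the embryo its ligands take part in forming the heart valves.

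Transcript levels differed mainly by age, in 3 genes with lower and 1 with higher levels in adults, so the sequences just upstream of those 3 starts are shown with that of Tgfb1, a ligand whose level did not pass in any comparison. Each is the 250 bases before a RefSeq transcription start on GRCm38.p6, 5′ to 3′ on the gene's strand. The windows of Inhba and Tgfb2 lie inside the gene spans given below, so their starts are not the outermost of the gene. Capitals mark matches, on either strand, to a TATA box core (TATAAA), a GC box (GGGCGG), an AP-1 motif (TGANTCA) or a half-site of the Smad binding element (CAGAC). No matches overlapped.
Inhba (chr13:16011601-16011850, plus strand): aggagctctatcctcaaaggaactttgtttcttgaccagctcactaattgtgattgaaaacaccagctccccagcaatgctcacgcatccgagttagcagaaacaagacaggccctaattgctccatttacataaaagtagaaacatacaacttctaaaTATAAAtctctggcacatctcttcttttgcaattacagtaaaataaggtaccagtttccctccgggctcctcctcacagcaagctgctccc
Tgfbr1 (chr4:47352972-47353221, plus strand): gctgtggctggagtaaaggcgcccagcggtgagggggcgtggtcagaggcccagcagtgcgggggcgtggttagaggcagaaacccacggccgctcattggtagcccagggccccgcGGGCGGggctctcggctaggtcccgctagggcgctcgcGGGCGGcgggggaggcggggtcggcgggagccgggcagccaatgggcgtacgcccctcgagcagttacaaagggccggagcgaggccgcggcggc
Tgfb2 (chr1:186705990-186706239, minus strand): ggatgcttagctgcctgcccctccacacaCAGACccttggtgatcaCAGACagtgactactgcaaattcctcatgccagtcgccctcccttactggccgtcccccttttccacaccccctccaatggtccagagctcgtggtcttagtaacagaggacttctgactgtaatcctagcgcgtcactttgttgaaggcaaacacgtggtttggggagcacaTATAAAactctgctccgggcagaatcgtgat
Tgfb1 (chr7:25686752-25687001, plus strand): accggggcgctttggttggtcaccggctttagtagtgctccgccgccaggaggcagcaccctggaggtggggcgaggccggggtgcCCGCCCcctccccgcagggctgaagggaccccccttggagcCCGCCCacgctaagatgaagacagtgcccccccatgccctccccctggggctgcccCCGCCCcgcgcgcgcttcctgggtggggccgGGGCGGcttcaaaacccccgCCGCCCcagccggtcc
The Inhba window was 43.2% G and C and held a TATA box core that begins 91 bases before the start. The Tgfb2 window was 53.6% G and C and held a TATA box core 31 bases before the start and a pair of Smad half-sites at 221 and 204 bases. The windows of Tgfbr1 (74.8% G and C, the first of its RefSeq starts in the table) and Tgfb1 (75.2%) held no TATA box core but GC boxes, at 133 and 95 bases before the start in Tgfbr1 and at 164, 123, 67, 36 and 16 bases in Tgfb1. The median over all 32851 mouse windows of the same length was 52.4% G and C. Of those windows 12.4% held the TATA box core, 32.7% the GC box, 6.75% the AP-1 motif and 42.2% the Smad half-site. A match describes these letters and not a bound site. Such upstream sequences were available for 8 of the 10 genes.

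The first question is how these transcripts differ between adult and neonatal ventricles after infarction. It was asked in recipients and again in controls, which share no library. In both, Tgfb2, Tgfbr1 and Inhba were lower in adults and Ltbp1 was higher, while Tgfb1, Tgfb3, Tgfbr2, Tgfbr3, Ltbp2 and Ltbp3 did not pass the test. In recipients the 4 of 10 called genes stand against 50.7% of all genes tested (23.8% higher and 26.9% lower in adults). In controls the 4 of 10 stand against 30.9% (15.6% higher and 15.4% lower). Calls were thus about as common among these genes as among genes in general. The median log2 fold change over the 10 genes was 0.01 in recipients and 0.02 in controls, against -0.03 and -0.02 over all genes tested.

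**Figure D1:**
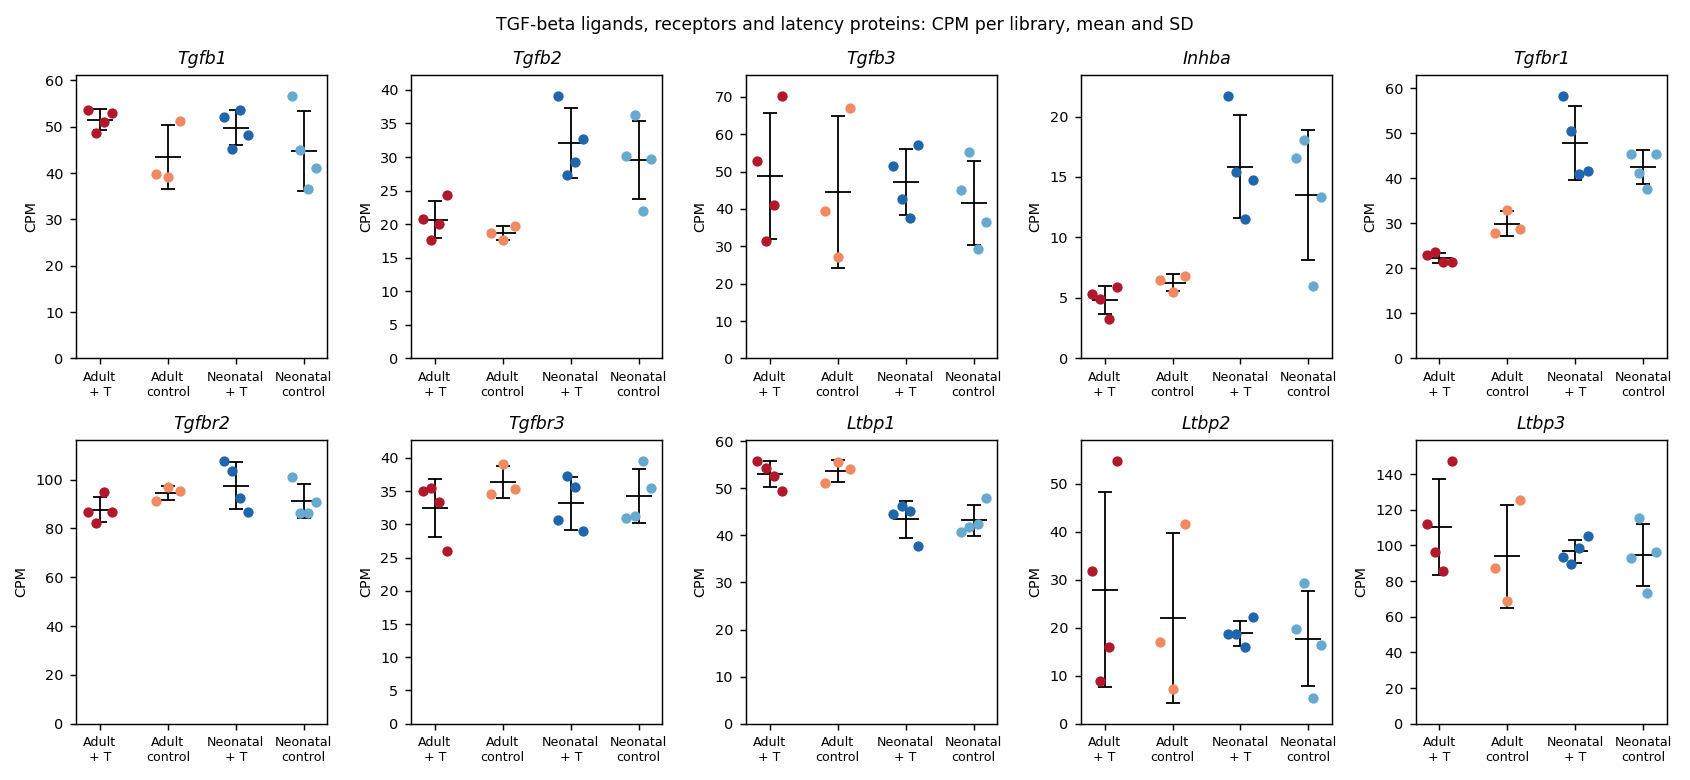
CPM of each of the 10 genes in every library (points), by group, with the group mean and SD (black bars); each panel has its own axis from 0. Inhba, Tgfb2 and Tgfbr1 sit lower in both adult groups, and Ltbp2 spreads from 8.95 to 54.7 CPM within adult recipients.

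Among ligands, Tgfb2 (gene ID 21808, chr1:186622787-186709697, minus strand) encodes the isoform best known for its part in heart valve formation. It measured 20.8, 17.6, 20.0 and 24.3 CPM in adult recipients 1 to 4, against 39.2, 27.3, 29.2 and 32.6 CPM in neonatal recipients 1, 2, 4 and 5. In adult controls 5 to 7 it measured 18.7, 17.6 and 19.8 CPM, against 30.2, 36.3, 21.98 and 29.7 CPM in neonatal controls 6 to 9. The groups did not overlap in either comparison, which held for 45.4% of all genes in recipients and 34.6% in controls. Tgfb2 fell by 0.63 on the log2 scale in adult recipients (SE 0.14, edgeR adjusted p = 0.00104) and by 0.66 in adult controls (SE 0.15, edgeR adjusted p = 0.00331), to levels 1.55-fold and 1.58-fold below those of neonates.

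Inhba (gene ID 16323, chr13:16004256-16031609, plus strand) encodes the beta A subunit, which forms activin A as a dimer with itself, a ligand that also signals through Smad2 and Smad3. It measured 5.33, 4.90, 3.23 and 5.94 CPM in adult recipients, against 21.7, 15.4, 11.5 and 14.7 CPM in neonatal recipients. Every adult recipient was below every neonatal recipient, and groups did not overlap in 45.4% of all genes in this comparison. The level of Inhba fell by 1.71 on the log2 scale (SE 0.31, edgeR adjusted p = 0.000405), a 3.26-fold difference and the largest among the 10 genes. In controls it measured 6.52, 5.50 and 6.78 CPM in adults, against 16.6, 18.02, 6.02 and 13.3 CPM in neonates. Neonatal control 8 lay within the adult range, and the other neonatal controls lay above it. The fall in adult controls was 1.11 on the log2 scale (SE 0.33, edgeR adjusted p = 0.0203). It was 1.35 without neonatal control 8 (edgeR adjusted p = 0.000119), and it missed the threshold without adult control 5, 6 or 7 or neonatal control 6 or 7 (adjusted p from 0.0513 to 0.0756), without a filter on low counts (0.0528) or with only the control libraries in the fit (0.0523).

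The other 2 ligand genes did not separate by age. Tgfb1 (gene ID 21803, chr7:25687002-25705077, plus strand), the isoform that platelets and immune cells release, measured 53.6, 48.6, 51.1 and 53.0 CPM in adult recipients, 39.7, 39.2 and 51.3 CPM in adult controls, 52.1, 45.2, 53.6 and 48.1 CPM in neonatal recipients and 56.7, 44.9, 36.6 and 41.1 CPM in neonatal controls. All 4 groups overlapped, and the log2 fold change of adults over neonates was 0.05 ± 0.11 in recipients and -0.05 ± 0.12 in controls. Their 95% intervals were -0.17 to 0.27 and -0.29 to 0.19. Tgfb3 (gene ID 21809, chr12:86056743-86079041, minus strand), an isoform known from palate formation, measured 52.9, 31.4, 40.9 and 70.4 CPM in adult recipients, against 51.6, 42.8, 37.5 and 57.1 CPM in neonatal recipients. It measured 39.6, 27.2 and 66.9 CPM in adult controls, against 45.2, 55.3, 29.3 and 36.6 CPM in neonatal controls. Its adult values lay on both sides of the neonatal ones, and the intervals of its log2 fold change were wide, -0.56 to 0.66 in recipients and -0.56 to 0.76 in controls.

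Among receptors, only Tgfbr1 (gene ID 21812, chr4:47353222-47414926, plus strand) passed the test. It measured 23.0, 23.6, 21.4 and 21.3 CPM in adult recipients, against 58.4, 50.5, 41.1 and 41.6 CPM in neonatal recipients. It measured 27.9, 33.1 and 28.9 CPM in adult controls, against 45.4, 41.3, 37.6 and 45.5 CPM in neonatal controls. The groups did not overlap in either comparison, which held for 45.4% of all genes in recipients and 34.6% in controls. Tgfbr1 fell by 1.10 on the log2 scale in adult recipients (SE 0.11, edgeR adjusted p = 3.37e-07) and by 0.50 in adult controls (SE 0.11, edgeR adjusted p = 0.00270), which is 2.15-fold and 1.42-fold.

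Tgfbr2 (gene ID 21813, chr9:116087695-116175363, minus strand), the type II receptor that binds the ligand, measured 86.8, 82.3, 94.9 and 86.8 CPM in adult recipients, against 108, 103, 92.5 and 86.6 CPM in neonatal recipients. It measured 91.2, 96.9 and 95.2 CPM in adult controls, against 101, 86.4, 86.3 and 90.7 CPM in neonatal controls. The groups overlapped in both, with log2 fold changes of -0.15 ± 0.076 in recipients (edgeR adjusted p = 0.0999) and 0.05 ± 0.082 in controls. Tgfbr3 (gene ID 21814, chr5:107106567-107289629, minus strand) encodes betaglycan, a co-receptor that presents Tgfb2 in particular and also binds inhibin. It ranged from 26.0 to 35.6 CPM in adult recipients, 34.6 to 39.1 CPM in adult controls, 28.9 to 37.4 CPM in neonatal recipients and 30.9 to 39.6 CPM in neonatal controls. Its log2 fold changes were -0.03 ± 0.11 in recipients and 0.08 ± 0.12 in controls. The ratio of Tgfbr1 to Tgfbr2, each taken per kilobase of its longest transcript, was 0.360 ± 0.0369 in adult recipients (SD, n = 4) and 0.445 ± 0.0300 in adult controls (SD, n = 3). It was 0.687 ± 0.0573 in neonatal recipients and 0.655 ± 0.0417 in neonatal controls (SD, n = 4 each). The highest adult ratio was 0.480 and the lowest neonatal ratio 0.612, and this ratio is a description with no test.

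Among latency proteins, Ltbp1 (gene ID 268977, chr17:75005480-75392512, plus strand), which links the latent ligand to fibrillin and fibronectin in the matrix, was the gene that rose. It measured 55.8, 54.3, 52.5 and 49.5 CPM in adult recipients, against 44.5, 46.2, 45.2 and 37.7 CPM in neonatal recipients. It measured 51.2, 55.7 and 54.1 CPM in adult controls, against 40.6, 41.7, 42.5 and 48.0 CPM in neonatal controls. The groups did not overlap, which held for 45.4% of all genes in recipients and 34.6% in controls. The difference was small, a log2 fold change of 0.29 ± 0.075 in recipients (edgeR adjusted p = 0.00372) and 0.31 ± 0.081 in controls (edgeR adjusted p = 0.00682), or 1.22-fold and 1.242-fold. With the transcript length trend removed the value in recipients was 0.54 (edgeR adjusted p = 1.45e-06).

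Ltbp2 (gene ID 16997, chr12:84783212-84876558, minus strand) encodes a matrix protein of the same family that, unlike its relatives, does not bind latent TGF-beta. It measured 31.8, 8.95, 15.9 and 54.7 CPM in adult recipients, against 18.6, 18.6, 15.9 and 22.1 CPM in neonatal recipients. It measured 16.96, 7.28 and 41.7 CPM in adult controls, against 19.7, 29.3, 5.26 and 16.3 CPM in neonatal controls. The spread within groups exceeded the difference between their means, and the log2 fold changes were 0.58 ± 0.64 in recipients and 0.31 ± 0.69 in controls. Ltbp3 (gene ID 16998, chr19:5740900-5758536, plus strand), which binds all 3 latent ligands, ranged from 85.9 to 147 CPM in adult recipients, 69.0 to 126 CPM in adult controls, 89.8 to 105 CPM in neonatal recipients and 73.4 to 115 CPM in neonatal controls. Its log2 fold changes were 0.19 ± 0.19 in recipients and -0.01 ± 0.21 in controls. The strand setting of the counting is not stated, so the level of Ltbp3 is uncertain. The lncRNA genes that overlap members had at most 1.18% of the member's count.

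**Figure D2:**
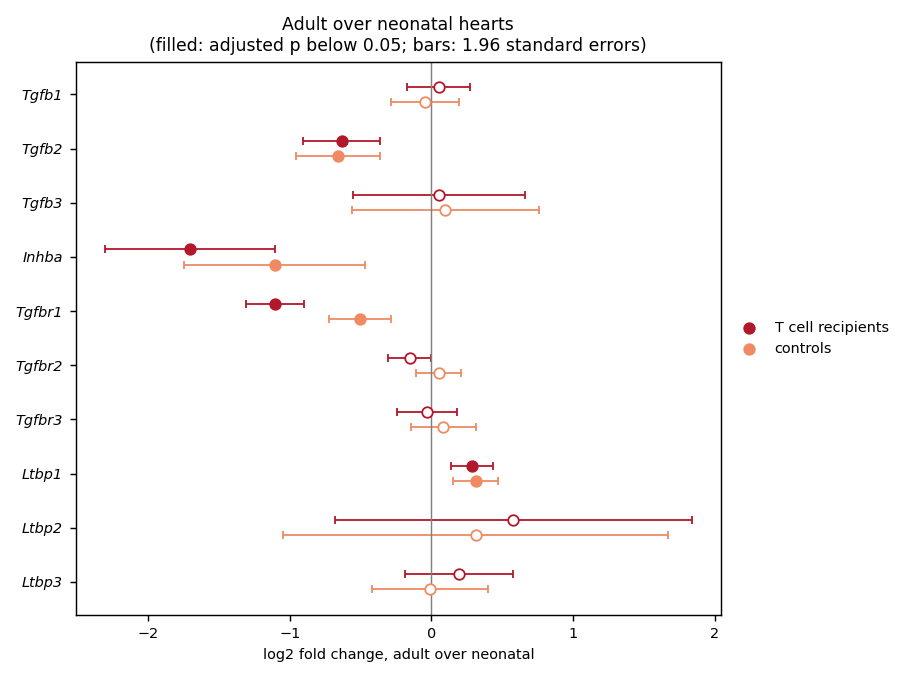
Log2 fold change of adult over neonatal hearts for the 10 genes, in recipients (upper point of each pair) and controls (lower point), with bars for the 95% interval; filled points passed the edgeR test. Inhba and Tgfbr1 lie farthest to the left in recipients, at -1.71 and -1.10, and the bars of Ltbp2 are the widest.

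Markers of several cell types differed with age beside these genes. The 6 macrophage markers summed to 119 to 156 CPM in adult recipients and 121 to 153 CPM in adult controls, against 359 to 525 CPM in neonatal recipients and 144 to 453 CPM in neonatal controls. All 6 were lower in adult recipients, and 4 of 6 in adult controls. Neonatal control 8 was the one at 144 CPM. That library was also the lowest of its group for every member except Tgfbr3 and Ltbp1. It was likewise lowest for the fibroblast, endocardial, neutrophil and platelet marker sums, and highest for the endothelial sum. The 6 fibroblast markers summed to 1782 to 2506 CPM in adult recipients and 1507 to 2259 CPM in adult controls, against 1925 to 2279 CPM in neonatal recipients and 1355 to 2336 CPM in neonatal controls, with 3 of 6 called higher and 1 lower in adults in both comparisons. The 5 endothelial markers summed to 1089 to 1260 CPM in adults and 753 to 892 CPM in neonates, with 4 of 5 higher in both comparisons. The 5 platelet markers summed to 13.7 to 19.9 CPM in adults and 18.2 to 47.2 CPM in neonates, with 2 of 5 lower in both. The 3 endocardial markers summed to 58.8 to 76.1 CPM in adult recipients and 48.3 to 65.5 CPM in adult controls, against 107 to 143 CPM in neonatal recipients and 97.3 to 132 CPM in neonatal controls, with 3 of 3 lower in adult recipients and 2 of 3 in adult controls. The endocardial sums did not overlap between ages, and the Tgfb2 levels did not within either comparison. The endothelial, smooth muscle and pericyte, erythroid, B cell and ventricular cardiomyocyte sums did not overlap between ages either, all of them higher in adults. The 7 ventricular cardiomyocyte markers summed to 58890 to 66012 CPM in adult recipients and 47701 to 50457 CPM in adult controls, against 38274 to 47026 CPM in neonatal recipients and 41206 to 44937 CPM in neonatal controls, with 6 of 7 higher in adult recipients and 2 of 7 in adult controls. No marker of these lists was at 0 in all libraries. The part of cell makeup in the differences by age was not tested.

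The second question is whether transferred adult T cells altered these transcripts. In adult hearts Tgfbr1 alone of the 10 genes was called, against 8.55% of all genes tested (3.53% higher and 5.03% lower). It averaged 22.3 ± 1.15 CPM in adult recipients (SD, n = 4) and 29.9 ± 2.77 CPM in adult controls (SD, n = 3), and every recipient, at 21.3 to 23.6 CPM, was below every control, at 27.9 to 33.1 CPM. Groups did not overlap in 25.1% of all genes in this comparison (13.1% higher and 12% lower in recipients). Tgfbr1 fell by 0.42 on the log2 scale in recipients (SE 0.11, edgeR adjusted p = 0.0326). This call was lost on leaving out any of adult recipients 1 to 4 or adult control 5 or 6 (adjusted p from 0.0504 to 0.147), while the log2 fold change stayed between -0.47 and -0.34 over all 7 such fits, and without adult recipient 4, adult control 5 or adult control 6 no gene of the table was called. With limma voom its adjusted p was 0.0526.

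Levels in adult recipients also moved with transcript length. Spearman's correlation, across 15334 genes of 1 library, between transcript length and the deviation from the gene's mean was -0.34 to -0.21 in adult recipients, 0.03 to 0.13 in adult controls, -0.08 to 0.36 in neonatal recipients and 0.04 to 0.32 in neonatal controls. Genes are not independent replicates in it. The longest Tgfbr1 transcript has 5756 bases, and with the length trend removed the log2 fold change in adult hearts was -0.27 (edgeR adjusted p = 0.174) and none of 15334 genes was called in this comparison, against 3020 below an unadjusted p of 0.05. The 7 ventricular cardiomyocyte markers summed to 58890 to 66012 CPM in adult recipients against 47701 to 50457 CPM in adult controls, with 3 of 7 called higher, and their part in the result was not tested.

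The other 9 genes did not pass in adult hearts. Tgfb1 averaged 51.6 ± 2.23 CPM in adult recipients and 43.4 ± 6.86 CPM in adult controls, with adult control 7, at 51.3 CPM, inside the range of the recipients. Its log2 fold change was 0.25 ± 0.12 (edgeR adjusted p = 0.201). Inhba averaged 4.85 ± 1.16 CPM in adult recipients and 6.26 ± 0.676 CPM in adult controls, a log2 fold change of -0.36 ± 0.34. The remaining log2 fold changes ran from -0.16 for Tgfbr3 to 0.35 for Ltbp2.

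In neonatal hearts none of the 10 genes passed, and no gene of the table did (0% called, with 513 of 16437 genes below an unadjusted p of 0.05 and none of the 10 among them). DESeq2 and limma voom also called no gene. Recipients and controls overlapped in all 10 genes, where 1.36% of all genes did not overlap. Log2 fold changes of recipients over controls ran from -0.05 ± 0.11 for Tgfbr3 to 0.24 ± 0.28 for Inhba, with 9 of 10 above 0 and a median of 0.11, against -0.00 over all genes tested. Of these signs, those of Tgfb2, Inhba and Ltbp2 turned on leaving out neonatal control 8 and no other library (to -0.0084, -0.017 and -0.23). Those of Ltbp3 and Tgfbr3 turned without it or without neonatal recipient 5, and that of Ltbp1 turned in 6 of 8 such fits. Tgfbr1 averaged 47.9 ± 8.23 CPM in neonatal recipients and 42.4 ± 3.77 CPM in neonatal controls (SD, n = 4 each), a log2 fold change of 0.18 ± 0.10 with a 95% interval of -0.02 to 0.38. Tgfb1 averaged 49.8 ± 3.79 CPM in neonatal recipients and 44.8 ± 8.64 CPM in neonatal controls, with an interval of -0.07 to 0.37. Tgfb2 averaged 32.1 ± 5.199 CPM in neonatal recipients and 29.5 ± 5.86 CPM in neonatal controls, with an interval of -0.15 to 0.38. The narrowest interval was that of Ltbp1, -0.14 to 0.15, and the widest that of Ltbp2, -1.18 to 1.35.

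**Figure D3:**
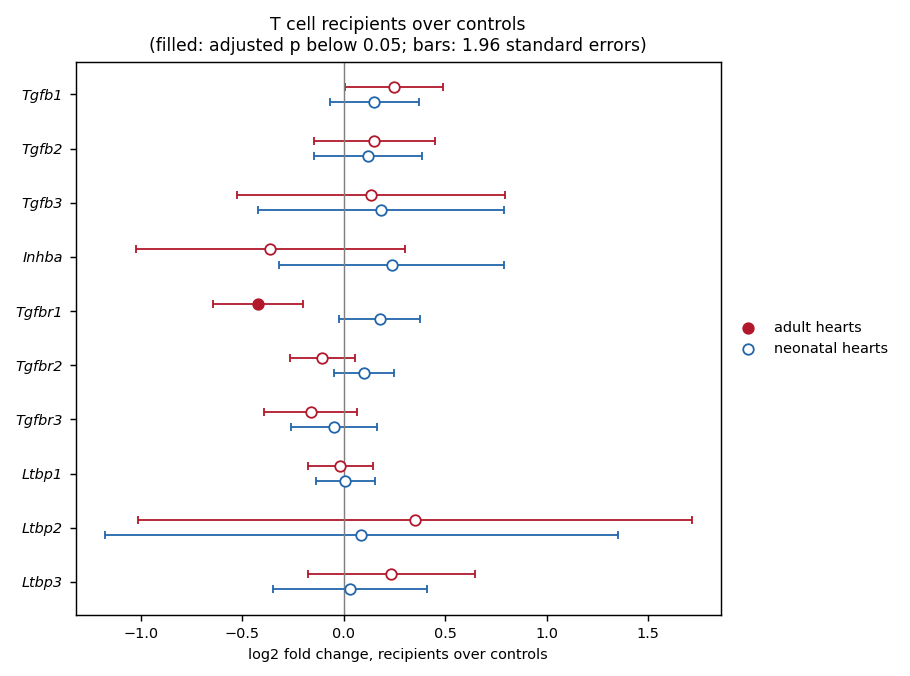
Log2 fold change of T cell recipients over controls for the 10 genes, in adult hearts (upper point of each pair) and neonatal hearts (lower point), with bars for the 95% interval; the filled point passed the edgeR test. Tgfbr1 in adult hearts, at -0.42, is the filled one.

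Whether the T cell effect differed between ages was tested directly, as the effect in adult hearts minus that in neonatal hearts. No gene of the table passed (0% called, with 2511 genes below an unadjusted p of 0.05). Tgfbr1 had the smallest p among the 10, with a difference of -0.60 ± 0.15 on the log2 scale and an unadjusted p of 0.000954 (edgeR adjusted p = 0.182). Under DESeq2, where 174 genes passed, it was -0.59 with an adjusted p of 0.0396. Over the 6 other settings it ran from -0.60 to -0.44, with an adjusted p of up to 0.351 (edgeR or limma voom). On leaving out each library it ran from -0.67 to -0.49 (edgeR adjusted p from 0.0924 to 0.369). The difference of -0.60 is also that between the age effects of Tgfbr1 in recipients and in controls given above. Inhba had a difference of the same size with a larger error, -0.60 ± 0.44. For the other 8 genes the differences ran from -0.21 (Tgfbr2) to 0.26 (Ltbp2), none with an unadjusted p below 0.05.

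Within groups the genes differed widely in how evenly they were measured. Ltbp2 had a coefficient of variation (SD over mean) of 72.9% in adult recipients, 80.7% in adult controls, 13.6% in neonatal recipients and 56.1% in neonatal controls. The median over 14033 genes of at least 1 CPM was 9.41%, 8.97%, 9.70% and 9.70% in the same groups, and Ltbp2 stood at their percentile 99.6, 99.7, 73.2 and 99.1. Its highest library was 6.12 times its lowest in adult recipients, 5.73 times in adult controls, 1.39 times in neonatal recipients and 5.56 times in neonatal controls. Tgfb3 came next in adults, at 34.4% in adult recipients and 45.5% in adult controls, and at 18.6% in neonatal recipients and 26.9% in neonatal controls. Ltbp1, at 4.24% to 8.86%, and Tgfbr2, at 3.11% to 9.94%, stayed below 10% in every group.

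The library highest for Ltbp2 (adult recipient 4, adult control 7, neonatal recipient 5 and neonatal control 7) was also the highest for Tgfb3 and for Ltbp3 in 4 of 4 groups, for Tgfb2 and for Inhba in 3 of 4, and for Ltbp1, Tgfbr1, Tgfbr2 and Tgfbr3 in none. The lowest library for Ltbp2 (adult recipient 2, adult control 6, neonatal recipient 4 and neonatal control 8) was also the lowest for Tgfb3 in 4 of 4 groups for Tgfb1, Tgfb2 and Inhba in 3 of 4, for Ltbp3, Tgfbr1 and Tgfbr2 in 2 of 4, and for Ltbp1 and Tgfbr3 in none. The fibroblast marker sum had its highest library in common with Ltbp2 in 3 of 4 groups and its lowest in 2 of 4. Infarct size and the part of the ventricle sampled are not stated in the labels, and their part in this spread was not tested.

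**Figure D4:**
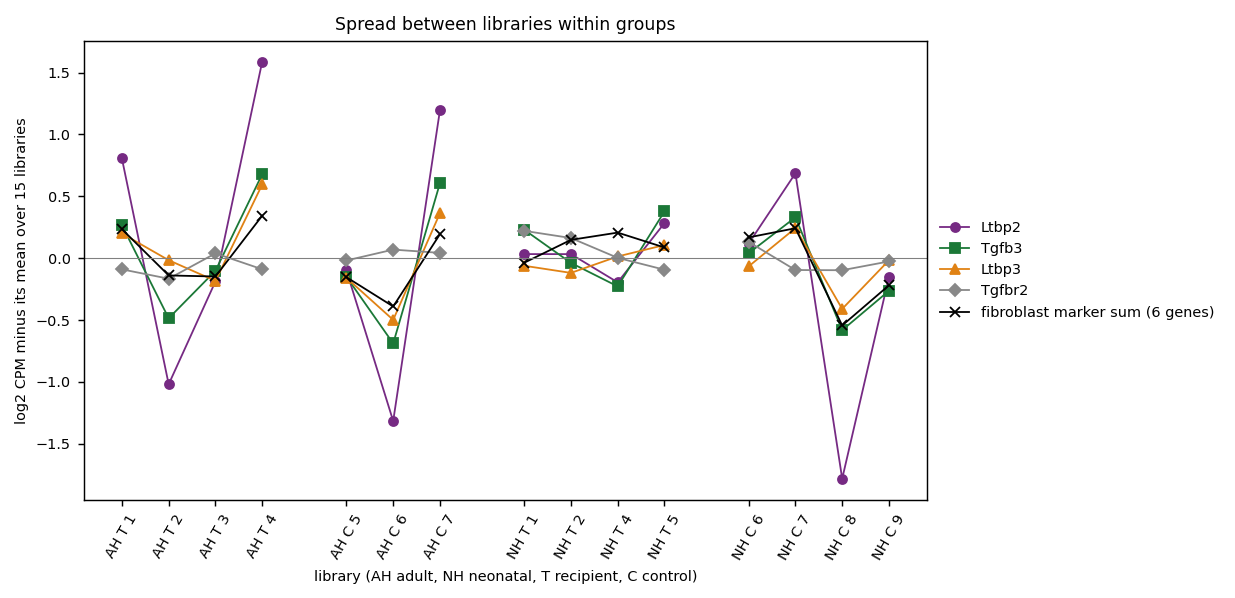
Log2 CPM of Ltbp2, Tgfb3, Ltbp3 and Tgfbr2 and of the summed fibroblast markers in each library, as the difference from the mean over all 15 libraries. Ltbp2, Tgfb3 and Ltbp3 share their highest library in each group, while Tgfbr2 stays nearly flat.

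To compare levels between genes, CPM was divided by the length of the longest annotated transcript in kilobases. Tgfb1 and Ltbp3 led, at 20.0 ± 0.867 and 19.3 ± 4.69 CPM per kilobase in adult recipients and at 17.4 ± 3.36 and 16.5 ± 3.005 in neonatal controls, and did not differ beyond their spread. Tgfb3 followed at 14.5 ± 4.97 in adult recipients, 13.2 ± 6.00 in adult controls, 13.96 ± 2.59 in neonatal recipients and 12.3 ± 3.30 in neonatal controls, within its spread of Tgfbr2 at 10.8 to 12.1. Ltbp1 (6.48 to 8.04) and Tgfbr3 (5.34 to 5.97) came below. Tgfbr1 was near or above Ltbp1 in neonates, at 8.32 ± 1.43 in neonatal recipients and 7.37 ± 0.655 in neonatal controls, and below both Ltbp1 and Tgfbr3 in adults, at 3.88 ± 0.200 in adult recipients and 5.201 ± 0.480 in adult controls. Tgfb2 had group means of 3.65 to 6.27 and Ltbp2 of 2.61 to 4.11. Inhba was lowest in every group, at 0.759 ± 0.182 in adult recipients, 0.980 ± 0.106 in adult controls, 2.48 ± 0.669 in neonatal recipients and 2.11 ± 0.838 in neonatal controls, within the spread of Ltbp2 in both neonatal groups.

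Of the summed level of Tgfb1, Tgfb2 and Tgfb3 on that scale, Tgfb2 made up 10.5% ± 0.439 in adult recipients (SD, n = 4), 11.2% ± 2.08 in adult controls (SD, n = 3), 15.8% ± 1.31 in neonatal recipients and 16.3% ± 1.59 in neonatal controls (SD, n = 4 each). The adult libraries lay between 8.86% and 12.9% and the neonatal libraries between 14.3% and 17.8%. Tgfb1 held the largest mean share, 49.1% to 52.8% in the 4 groups, and Tgfb3 held 34.3% to 37.8%. These shares were not tested.

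**Figure D5:**
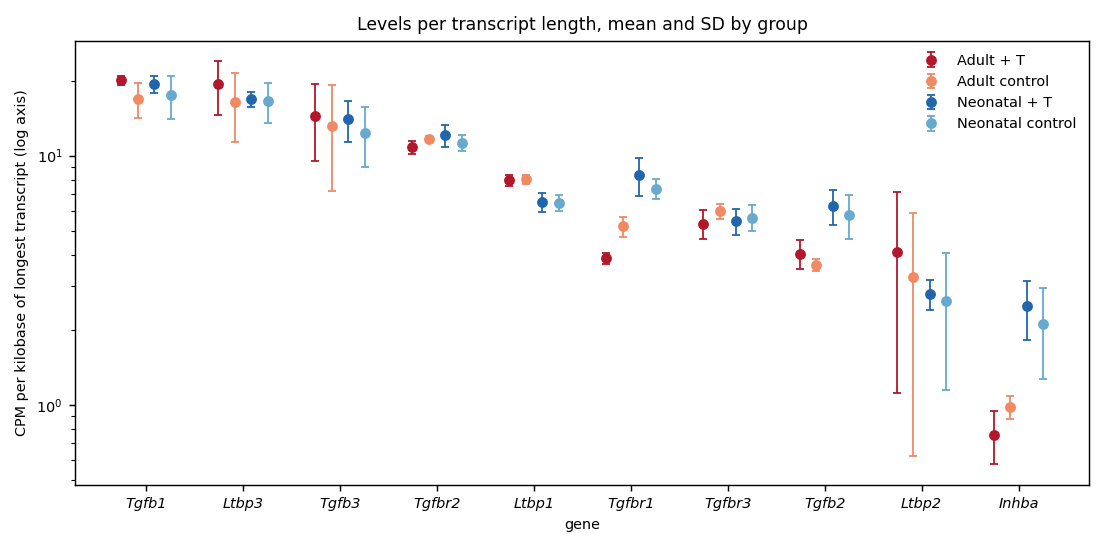
Mean CPM per kilobase of the longest transcript for each gene and group, with SD bars, on a log axis. Tgfb1 and Ltbp3 are highest and Inhba lowest, and the neonatal points lie above the adult ones for Tgfbr1, Tgfb2 and Inhba.

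Other genes of the pathway were counted in lists, for which the background of all genes tested is 23.8% called higher and 26.9% lower in adult recipients, and 15.6% higher and 15.4% lower in adult controls. Of 12 tested related ligands and antagonists (17 listed), 1 was higher and 5 were lower in adult recipients, and 1 was higher and 4 were lower in adult controls. These shares lie near those of all genes tested, 50.7% called in recipients and 30.9% in controls. In controls the 5 calls became 2 without adult control 5 or neonatal control 6, and 3 without adult control 6 or neonatal control 7 or 9. Bmp7, a bone morphogenetic protein, averaged 18.8 ± 3.34 CPM in adult recipients and 45.1 ± 5.04 CPM in neonatal recipients, and 17.7 ± 1.20 CPM in adult controls and 44.7 ± 3.79 CPM in neonatal controls. Inhbb, the beta B subunit of activin B, fell as Inhba did, with 2.99 ± 1.13 CPM in adult recipients and 8.46 ± 1.16 CPM in neonatal recipients, and 2.77 ± 0.803 CPM in adult controls and 6.72 ± 2.94 CPM in neonatal controls. Chrd (chordin, an antagonist of bone morphogenetic proteins) rose, by a log2 fold change of 1.34 ± 0.26 in recipients and 0.89 ± 0.28 in controls. Fstl1, a secreted follistatin-like protein, fell by 0.45 on the log2 scale in recipients and 0.39 in controls. The activin antagonist Fstl3 fell by 0.80 in recipients and 1.11 in controls.

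Of 12 tested related receptors (14 listed), 1 was higher and 6 were lower in adult recipients, and none was higher and 2 were lower in adult controls. The first share is near the 50.7% of all genes tested and the second below their 30.9%. With the length trend removed the calls were 3 in recipients and 1 in controls, and 1 was left in controls without adult control 5 or neonatal control 7. Acvr1b, the type I activin receptor also called ALK4, averaged 24.5 ± 1.67 CPM in adult recipients and 45.6 ± 3.43 CPM in neonatal recipients, and 31.1 ± 2.65 CPM in adult controls and 43.7 ± 3.60 CPM in neonatal controls. Its log2 fold change was -0.90 ± 0.083 in recipients and -0.49 ± 0.089 in controls, beside -1.10 and -0.50 for Tgfbr1. In recipients Bmpr2, a type II receptor of bone morphogenetic proteins, fell by 0.74 on the log2 scale and Cd109, a co-receptor that dampens TGF-beta signalling, by 0.45, while Eng (endoglin, a co-receptor of endothelial cells) rose by 0.32. In controls the decoy receptor Bambi fell by 0.33. T cells in adult hearts gave 2 lower calls here, against 8.55% of all genes called (5.03% lower), and none without adult recipient 2. As for Tgfbr1, calls of this comparison in any list were 0 without adult recipient 4, adult control 5 or adult control 6, and with the length trend removed. Acvr1b averaged 24.5 ± 1.67 CPM in adult recipients and 31.1 ± 2.65 CPM in adult controls (edgeR adjusted p = 0.0295), and Bmpr2 averaged 44.8 ± 3.76 CPM in adult recipients and 59.8 ± 6.20 CPM in adult controls (edgeR adjusted p = 0.0317).

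Of 25 genes of latency and activation, 7 were higher and 12 lower in adult recipients, and 7 were higher and 7 lower in adult controls, against 50.7% of all genes called in recipients and 30.9% in controls. Both counts exceed that background, but the list was chosen with earlier results of these data known and was not tested as a set. Ltbp4, the binding protein of elastic fibres, averaged 730 ± 103 CPM in adult recipients and 322 ± 24.2 CPM in neonatal recipients, and 618 ± 89.9 CPM in adult controls and 329 ± 15.9 CPM in neonatal controls. Itgb6, the integrin subunit that with the alpha v subunit activates latent Tgfb1, averaged 11.2 ± 2.84 CPM in adult recipients and 1.84 ± 0.546 CPM in neonatal recipients, and 11.4 ± 2.16 CPM in adult controls and 2.95 ± 0.642 CPM in neonatal controls. Itgav, the alpha v subunit, went the other way, at 19.8 ± 1.06 CPM in adult recipients and 49.9 ± 8.69 CPM in neonatal recipients. In controls Itgav averaged 22.7 ± 1.62 CPM in adults and 43.4 ± 9.33 CPM in neonates. The genes named for age by smallest p were all higher in adults, although lower calls were 12 in recipients and 7 in controls. Dcn (decorin), a matrix proteoglycan that binds TGF-beta and is also among the fibroblast markers, rose by a log2 fold change of 0.92 in recipients and 0.94 in controls. The secreted protease Htra1 rose by 1.19 in recipients and 0.79 in controls, and Pcsk6, a proprotein convertase, by 1.51 and 1.65. With T cells in adult hearts, Htra1 averaged 150.2 ± 22.5 CPM in adult recipients and 117 ± 6.72 CPM in adult controls, the only call of this list (edgeR adjusted p = 0.0419), which was also lost without adult recipient 1 or 2 or adult control 7.

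Of 20 genes of Smad signalling and feedback, 1 was higher and 7 lower in adult recipients, and 3 were higher and 4 lower in adult controls, near the 50.7% and 30.9% of all genes called. In controls the count of 7 became 2 without adult control 5 or 7 and 4 without neonatal control 8, and it was 4 with no filter on low counts. In recipients Smad2, which the type I receptor phosphorylates, fell by 0.43 on the log2 scale, Skil, a repressor of Smad complexes, by 0.40, and Tab2, an adaptor of the kinase TAK1, by 0.39. Tab1, another partner of TAK1, rose by 0.49 in recipients and 0.24 in controls. Smad2 also fell in controls, by 0.25, while Skil and Tab2 did not pass there. In controls the corepressors Tgif1 and Tgif2 fell by 0.51 and 0.35, while the corepressor Ski rose by 0.20 and Tgfbrap1, a receptor-associated protein, by 0.24. Tgif1 also fell in recipients, by 0.46. With T cells in adult hearts, Map3k7, which encodes TAK1, fell by 0.30 (edgeR adjusted p = 0.0275) and Tab2 by 0.29 (edgeR adjusted p = 0.0315), and neither passed without adult recipient 2.

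Of 26 genes known as TGF-beta targets, 5 were higher and 12 lower in adult recipients, with a median log2 fold change of -0.45, and 3 were higher and 10 lower in adult controls, with a median of -0.54. Over all genes tested 50.7% and 30.9% were called, with medians of -0.03 and -0.02, and the list was not tested as a set. Timp1, an inhibitor of matrix proteases, averaged 17.7 ± 4.48 CPM in adult controls and 57.2 ± 25.5 CPM in neonatal controls. Acta2, the smooth muscle actin of myofibroblasts, averaged 689 ± 101 CPM in adult controls and 1111 ± 117 CPM in neonatal controls. In recipients Timp1 fell by 1.44 and Acta2 by 0.39 on the log2 scale. The transcriptional regulator Id2 fell by 0.95 in recipients and 0.67 in controls. Id1, a related regulator that bone morphogenetic proteins also induce, rose by 0.86 in recipients and 0.58 in controls, and Cdkn1a, the cell cycle inhibitor p21, rose by 0.67 and 0.57. In recipients Id3 rose by 0.39, and with T cells in adult hearts it averaged 113 ± 11.2 CPM in adult recipients and 88.9 ± 2.81 CPM in adult controls, the only call of the list (edgeR adjusted p = 0.0315), which was also lost without adult recipient 1 or 2 or adult control 7.

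With T cells in neonatal hearts no gene of the 5 lists passed. The target gene with the smallest p, Bhlhe40, a transcriptional repressor, averaged 63.1 ± 6.05 CPM in neonatal recipients and 51.9 ± 3.27 CPM in neonatal controls. In the latency list Itgb6 averaged 1.84 ± 0.546 CPM in neonatal recipients and 2.95 ± 0.642 CPM in neonatal controls, and Nrros, which tethers latent Tgfb1 on macrophages and microglia, averaged 31.2 ± 6.08 CPM in neonatal recipients and 21.6 ± 7.50 CPM in neonatal controls. The macrophage marker sum of 359 to 525 CPM in neonatal recipients against 144 to 453 CPM in neonatal controls moved the same way as Nrros, with 0 of 6 markers called. Its part was not tested. In the difference of T cell effects no listed gene passed either.

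The genes whose pattern across the 15 libraries was most like each member were found by the root mean square difference of log2 CPM, after centring each gene on its mean, among 12925 genes. Inhba was nearest to Adam12 (0.24), Loxl4 (0.25) and Lox (0.25), the last pair being enzymes that cross-link collagen and elastin. Tgfb3 was nearest to Loxl3 (0.18), Tmem119 and Mmp23, and Ltbp3 to Loxl1 (0.11), Scarf2 and Mfap2, a microfibril protein. Ltbp2 had no close match, its nearest being Ccn5 (0.41), Lrrc15 (0.41) and the collagen gene Col9a2 (0.45). Tgfbr1 was nearest to Gfpt1 (0.10), Strn and Atl3, Tgfb2 to Anxa3 (0.070), Ckap4 and Ptk7, and Tgfb1 to Glmp (0.076), Rnpep and Hpcal1. Tgfbr2 was nearest to Poc1b (0.052), Ap3b1 and Shc1, Tgfbr3 to Slc20a2 (0.071), Cmtm4 and Fam126a, and Ltbp1 to Epn2 (0.066), Myo10 and Pigo. Genes that vary little lie close to many others on this scale. Among the 10 genes themselves the nearest pairs were Tgfbr2 with Tgfbr3 (0.19), Tgfbr3 with Ltbp1 (0.19) and Tgfb3 with Ltbp3 (0.21).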

How the data were processed

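Per the labels' protocols, left ventricles were stored in RNAlater, RNA was extracted by RNeasy Plus Micro, and TruSeq Stranded mRNA libraries were made from the polyadenylated part. Per the submitters' processing notes, bcl2fastq 2.20.0.422, cutadapt 2.5, STAR 2.7.2b, featureCounts 1.6.4 and DESeq2 1.24.0 were used, with build GRCm38.p6. The authors deposited expected counts per gene, unscaled and partly fractional (61.1% of non-zero values were whole). The strand setting and the rule for fractions are not given in the sources used here.

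Expected counts were rounded to whole numbers, filtered by filterByExpr (minimum count 10, minimum total 15), which kept 16437 genes, and scaled by TMM. All 15 libraries entered a robust quasi-likelihood fit (edgeR 4.0.16, R 4.3.3) with a coefficient per group and no covariate, with Benjamini-Hochberg adjustment. SE is the absolute log2 fold change over the square root of F. Intervals are normal 95% intervals. Log2 CPM used a prior count of 1. No batch is labelled. Totals of 21871617 to 34302786 counts gave a median SE of 0.115 for age in recipients, 0.124 for age in controls, 0.125 for T cells in adults, 0.114 in neonates and 0.169 for the difference. No libraries held identical values, and the steps were tested on simulated data. Transcript lengths come from GENCODE M21 and promoter sequences from RefSeq.

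The members and lists were chosen with earlier results of these data known. All members were named. From each list and comparison up to 4 genes past the threshold with the smallest p were named, or up to 2 where none passed (not all are printed), and 3 genes nearest in pattern to each member. Itgav was named in addition, as the partner of Itgb6. Alternatives were DESeq2 1.42.0, limma voom 3.58.1, median-of-ratios scaling, no filter, rounding down, removal of a transcript length trend (spline with 5 degrees of freedom), only the groups compared, a replicate block, and leaving out each library.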

Additional observations from a re-analysis of the deposited data

How the results depend on the processing

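In adult hearts the single call for T cells (Tgfbr1) became 0 with limma voom and 0 with the transcript length trend removed, and ranged from 0 to 1 on leaving out a library, staying only without adult control 7. For the difference of the T cell effects the count of members called was 1 with DESeq2 and 0 otherwise. The cause of these shifts was not tested. Counts for age were 4 to 5 in recipients and 3 to 4 in controls under all alternatives, and Tgfb2 and Tgfbr1 remained lower and Ltbp1 higher, past the threshold, in both. Inhba did so in recipients. With T cells in neonatal hearts no member was called under any alternative.

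With a replicate block on the numbers in the titles, 5 members were called for age in recipients, Ltbp3 in addition at a log2 fold change of 0.33 (edgeR adjusted p = 0.0267), and 4 in controls. Without neonatal recipient 5, Tgfbr2 passed at -0.21 (edgeR adjusted p = 0.0318). The labels do not state that these numbers pair libraries, and so few libraries cannot decide it. Deviations of same-numbered recipients correlated at 0.072, 0.11 and -0.071 for numbers 1, 2 and 4. Those of controls correlated at -0.061 and 0.31 for 6 and 7, and 3 of 6 recipient libraries correlated best with their own number.

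Signs turned only for values that had not passed. With the length trend removed, age in recipients gave 0.14 for Tgfbr2 and 0.20 for Tgfbr3, age in controls 0.0059 for Tgfb1 and 0.052 for Ltbp3, and T cells in adults 0.12 for Tgfbr2, 0.0015 for Tgfbr3 and 0.17 for Ltbp1. With the replicate block, age in controls gave -0.21 for Tgfb3 and -0.37 for Ltbp2. On leaving out each library, age in recipients ranged from -0.18 to 0.22 for Tgfb3 and from -0.092 to 0.063 for Tgfbr3, and age in controls from -0.18 to 0.087 for Tgfb1, -0.32 to 0.35 for Tgfb3, -0.54 to 0.73 for Ltbp2 and -0.27 to 0.17 for Ltbp3. T cells in adults then ranged from -0.12 to 0.55 for Tgfb3, -0.051 to 0.015 for Ltbp1 and -0.22 to 1.21 for Ltbp2. T cells in neonates ranged from -0.0084 to 0.24 for Tgfb2, -0.11 to 0.020 for Tgfbr3, -0.024 to 0.068 for Ltbp1, -0.23 to 0.45 for Ltbp2, -0.083 to 0.14 for Ltbp3 and -0.017 to 0.41 for Inhba. All scalings moved the median of all genes by under 0.1 on the log2 scale. Of 405 recomputed counts for the pathway lists, 363 stayed within 1.5 times. Of the 42 that moved, 28 were for T cells in adults, 13 for age in controls (related ligands, receptors and Smad signalling, the last at 1 call with the replicate block) and 1 for age in recipients. The groups of 3 and 4 libraries limit Ltbp2, Tgfb3 and Inhba most, whose intervals are the widest.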
